A study of Daphnia magna with 20 samples.

Results

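Juveniles of the water flea *Daphnia magna* and adult females in the middle of an intermoult cycle were compared on whole-animal transcription, with 3 arrays of females (F2) and 3 arrays of juveniles (J) out of 20 arrays that cover 7 life stages. The members were all arrays labelled with these 2 stages, and every probe for a gene model was used: 162718 probes of 41316 gene models. F2 females were 16 days old in the sample labels, while the series text gives 15 days and a sampling about 36 h after oviposition. They were reproducing adults, and embryos were flushed from the brood pouch before collection. J animals were 4 days old, at a pre-adolescent stage, and had no visible ovary. All animals came from 1 parthenogenetic clone, Clone F, kept in hard synthetic water at a long-day photoperiod and fed the green alga *Chlorella vulgaris*, so that the groups were not set apart by genotype or treatment. The other stages, used here only as a setting for the results, were early embryos (E1, under 12 h), late embryos (E3, 60 h), females just after moulting (F1, 15 days) and at the end of the cycle (F3, 18 days), and males (M, 16 days, 2 arrays), with ages from the labels. The series text gives 14 days for F1 and 16 days for F3. The males had been obtained by exposing mothers to methyl farnesoate.

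A water flea grows by shedding its cuticle, and juveniles pass through several moults before the first clutch. In adult females the moult cycle and the reproductive cycle run together: after each moult a clutch of eggs is laid into the brood pouch, and the next clutch is provisioned with yolk in the ovary while the embryos of the previous one develop. The middle of the cycle thus falls between 2 moults, with an ovary in provisioning, whereas juveniles feed, grow and moult with no provisioning ovary. In arthropods the synthesis of the new cuticle before a moult, the moult itself and the hardening that follows are driven by pulses of ecdysteroid hormones and engage sets of genes in turn. This is background to the stages and was not measured here.

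Each array reads fluorescence at printed oligonucleotides, and up to 4 probes lie along each gene model, a transcript predicted from assembled reads. Gene models are given by the identifiers of the array design. The reference table of gene names matched 0 of them, so that pathways, cell type markers and the labelled stage (a yolk protein in F2, for instance) were not checked by gene here, and the results are given for probes and gene models, with 4 of the gene models named by identifier. Values are log2 signals after quantile normalization of the 20 arrays, so that a difference of 1 is a 2-fold difference in signal, and each difference is F2 minus J.

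F2 and J arrays stood clearly apart from each other. After centring each probe on its median over the series, the 3 pairs of F2 arrays correlated at r = 0.829 to 0.876 across probes and the 3 pairs of J arrays at 0.847 to 0.881, whereas F2 arrays correlated with J arrays at -0.462 to -0.326. These coefficients run over probes and describe the arrays only. The median SD between replicates was 0.17 in F2 and 0.20 in J on the log2 scale. No F2 or J array lay on the slide of the first scan date, whose 4 arrays had the lowest shares of probes well above background in the series (17.2% to 25.3%). These were E1 replicate 2, E3 replicate 2, F1 replicate 3 and M replicate 1, and no F3 array was among them. The 3 F2 arrays lay on 3 slides of the third scan date. Replicate 2 of J shared a slide with replicate 2 of F2, and the other 2 J arrays lay together on a slide of the second scan date. Slide and stage could therefore be separated only in part, and the values from the shared slide are given below.

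A probe was tested where it exceeded the percentile 95 of the random probes, which match no gene model, in every array of at least 1 stage. This left 76235 probes of 28459 gene models, or 68.9% of the gene models. By limma's moderated test over all 20 arrays, with Benjamini-Hochberg adjusted p under 0.05 and at least 1.5-fold difference, 17755 probes differed between F2 and J, which is 23.3% of those tested. Of these, 8347 were higher in F2 (10.9% of the tested probes) and 9408 were lower in F2 (12.3%). The probes that differed belonged to 8877 gene models (31.2% of the tested models): 4290 had only higher probes, 4535 only lower ones and 52 had both. Without the limit on the fold change 18086 probes passed, and 26570 had an unadjusted p under 0.05. The count was 36817 when the 4 arrays of the first slide were left out, which also raised the number of tested probes to 87542. It was 39071 when only the 6 F2 and J arrays were fitted, and 11675 without J replicate 3. As the RNA came from whole animals, a lower signal from fewer cells of a type and from less RNA per cell cannot be told apart.

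The probes called were nearly always separated without overlap. In 17712 of the 17755 called probes the 3 F2 arrays lay all above or all below the 3 J arrays, in 18 they overlapped and in 25 a value was missing. Groups that do not overlap were common in these data, however, with 68.6% of all tested probes in that state, 25659 of them above J and 26609 below. The median difference over all tested probes was -0.01, with a median standard error of 0.47.

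**Figure D1:**
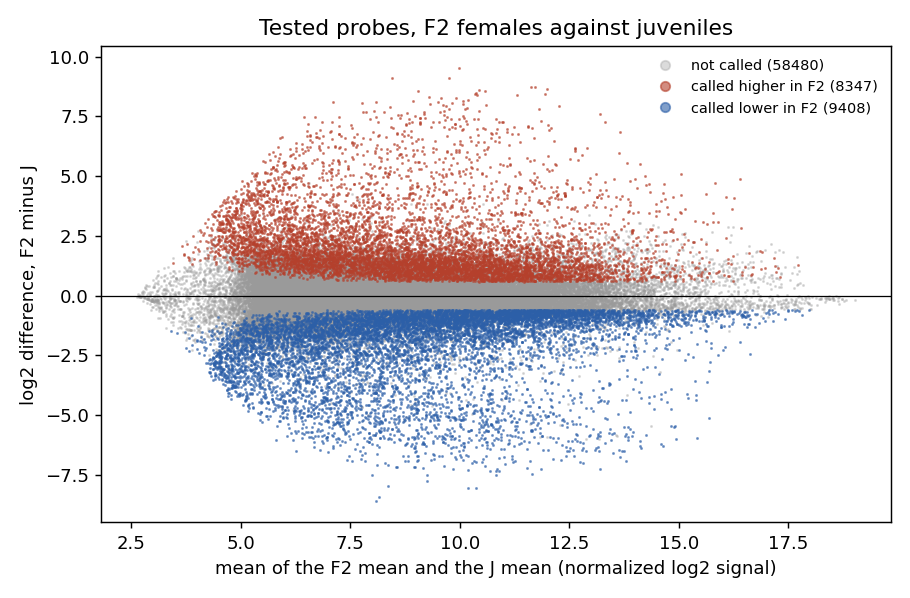
Difference between F2 and J (log2, vertical axis) against the mean of both group means (normalized log2 signal, horizontal axis) for the 76235 tested probes, 1 point per probe. The 8347 probes called higher in F2 and the 9408 called lower lie on both sides of 0 over the whole range of signals.

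The differences were large on both sides. Among called probes the median difference was 1.59 for the higher ones, or 3.02-fold, and -1.55 for the lower ones, or 2.92-fold. The largest single differences were 9.55 and -8.59. At least 4-fold differences were found in 3070 higher and 3523 lower probes, at least 16-fold in 864 and 1279, and at least 64-fold in 247 and 216. Lower probes thus outnumbered higher ones at every limit up to 32-fold (464 higher, 673 lower) but not at 64-fold.

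Part of these folds are set by the floor of the measurement. Of the probes called higher, 940 were not well above background on any J array, as marked by the scanner software, and of those called lower, 564 were not well above background on any F2 array. For these the fold is a lower bound, taken against the dimmer group with each of its arrays set to the higher of 2 values, the probe's own signal and the least signal that the scanner still marked as well above background. The count of at least 16-fold differences among them was then 117 for the higher and 61 for the lower probes. A total of 6529 higher and 7969 lower probes were well above background on all 6 arrays, and 410 and 810 of those differed at least 16-fold. At 64-fold, 103 higher and 131 lower ones of them remained, so that the lower ones were the more numerous there too. The excess of lower probes among large differences was, on this scaling, seen also where both stages were measured.

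**Figure D2:**
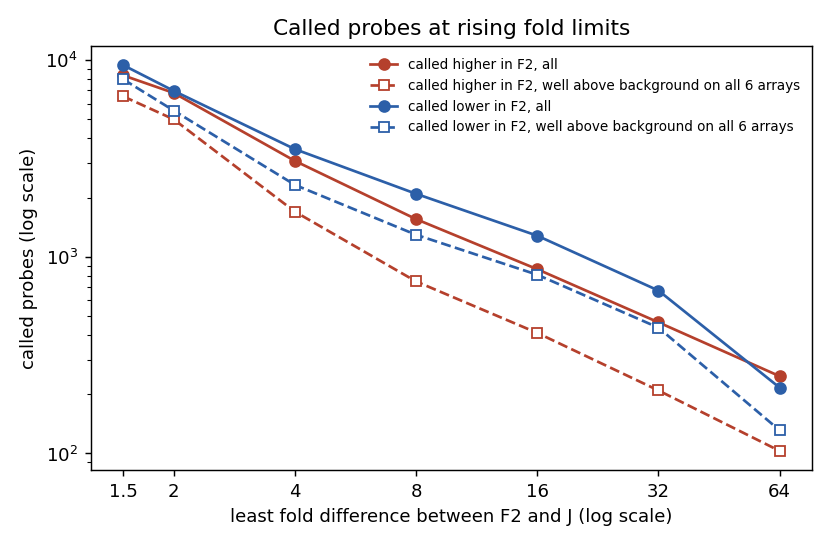
Number of called probes (vertical axis, log scale) that reach each fold limit (horizontal axis, log scale), for all called probes and for those well above background on all 6 arrays. The lower probes exceed the higher ones at each limit up to 32-fold. At 64-fold the counts are 247 higher and 216 lower among all called probes, and 103 and 131 among those well above background on all 6 arrays.

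Calls depended on the brightness of the probes. In 5 equal classes of the mean signal, from dim to bright, 16.3%, 14.2%, 21.7%, 31.1% and 33.3% of the tested probes were called, while the median standard error was 0.63 in the dimmest class and 0.26 in the brightest. The share of higher probes among those called stayed between 43.8% and 49.5%, and the brightest class had the lowest value, with 2223 higher and 2849 lower probes.

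Probes of a gene model largely went the same way. Of 4706 gene models with at least 2 called probes, 1.1% had calls in both directions, and with 4 called probes this was 0.514% (7 of 1362 models). For a probe called higher, another tested probe of the same model also had a positive difference in 96.6% of 20026 ordered pairs and was itself called higher in 64%. For probes called lower these shares were 96.9% and 67.8% of 23380 pairs. Probes of a model read the same RNA samples, so that they are no replicates of the stages. In all, 2161 gene models had at least 2 higher probes and no lower one, and 2493 at least 2 lower probes and no higher one. Among 16078 models with at least 3 tested probes, every tested probe was called higher in 818 and lower in 1055. When the tested probes of each model were first reduced to their median, 6481 of 28459 models differed, 3164 higher and 3317 lower in F2.

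Gene models with related identifiers were not always called in a common direction. Some identifiers differ only in their last number, which follows the letters Loc, a number and t, and they are taken here as 1 locus. In all, 278 such loci held at least 2 gene models with calls. All called models were higher in F2 in 120 loci and lower in 92, while 60 loci (21.6%) had called models in each direction. The remaining loci held at least 1 model with mixed calls. The sequences behind these identifiers were not analysed here, and whether members of a locus are splice forms, alleles or repeated genes was not tested.

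The gene models that changed most were ranked by the median difference among models with at least 3 tested probes, all called and all well above background on every F2 and J array. There were 515 such models higher in F2 and 766 lower. Their median fold was 2.94 for the higher models and 3.05 for the lower ones, with 188 higher and 301 lower models over 4-fold, and 49 and 112 over 16-fold. The 2 leading models of each direction are described next, each by the median of its tested probes in every array.

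Gene model dmag2vel4f4xincok59Loc5035t22 had log2 signals of 16.10, 16.25 and 15.95 in the 3 F2 arrays, against 9.57, 5.66 and 6.87 in the 3 J arrays. F2 replicates were thus tight (SD 0.15), while J replicates spread widely (SD 2.01), with replicate 1 the highest. Its 3 tested probes had differences of 8.46 to 8.75, a median 421-fold, and a highest adjusted p of 0.000365 (limma). The median difference was 9.80 without J replicate 1 and 7.87 without J replicate 2. The second, velb9ptr029k87Loc36t1, had signals of 15.94, 15.77 and 16.22 in F2, against 9.73, 8.39 and 8.46 in J, and again replicate 1 was the highest of the J arrays. Its 4 probes differed by a median of 7.69 (207-fold), but 1 of them by only 4.43, with J signals of 11.41, 10.36 and 11.17. The probes thus differed in the size of the change while all were called, with a highest adjusted p of 0.000192.

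Gene model velb9ptf231k27Loc33t1 had log2 signals of 5.46, 9.19 and 9.72 in the 3 F2 arrays, against 15.39, 15.00 and 14.76 in the 3 J arrays. It was the F2 arrays that spread here, with replicate 1 far below the other two. Its 3 tested probes fell by a median of 6.95 on the log2 scale (123-fold), with a highest adjusted p of 0.00582. Without F2 replicate 1 the median difference was -5.59. In that array 2 of the 3 probes lay under the percentile 95 of the random probes (5.88), though marked as well above background, so that the fold rests on values near the floor. The third, which was above both limits in all F2 and J arrays, fell by only 3.29. A further probe of this model was not tested, as it was not above background in all arrays of any stage. Gene model velb9ptr035k87Loc16t1 had signals of 4.70, 7.44 and 7.51 in F2, against 13.43, 13.63 and 13.05 in J, with replicate 1 of F2 again the lowest. The median difference of its 4 probes was -6.78 (110-fold lower in F2), and 1 of them, with a difference of -3.95, had the highest adjusted p, 0.0331. Without F2 replicate 1 the median difference was -5.88, and in that array the other 3 probes again lay under the percentile 95 of the random probes. The probe with the smallest difference passed the threshold in the fit of all arrays but not when any of the F2 or J arrays was left out (adjusted p 0.064 to 0.116).

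**Figure D3:**
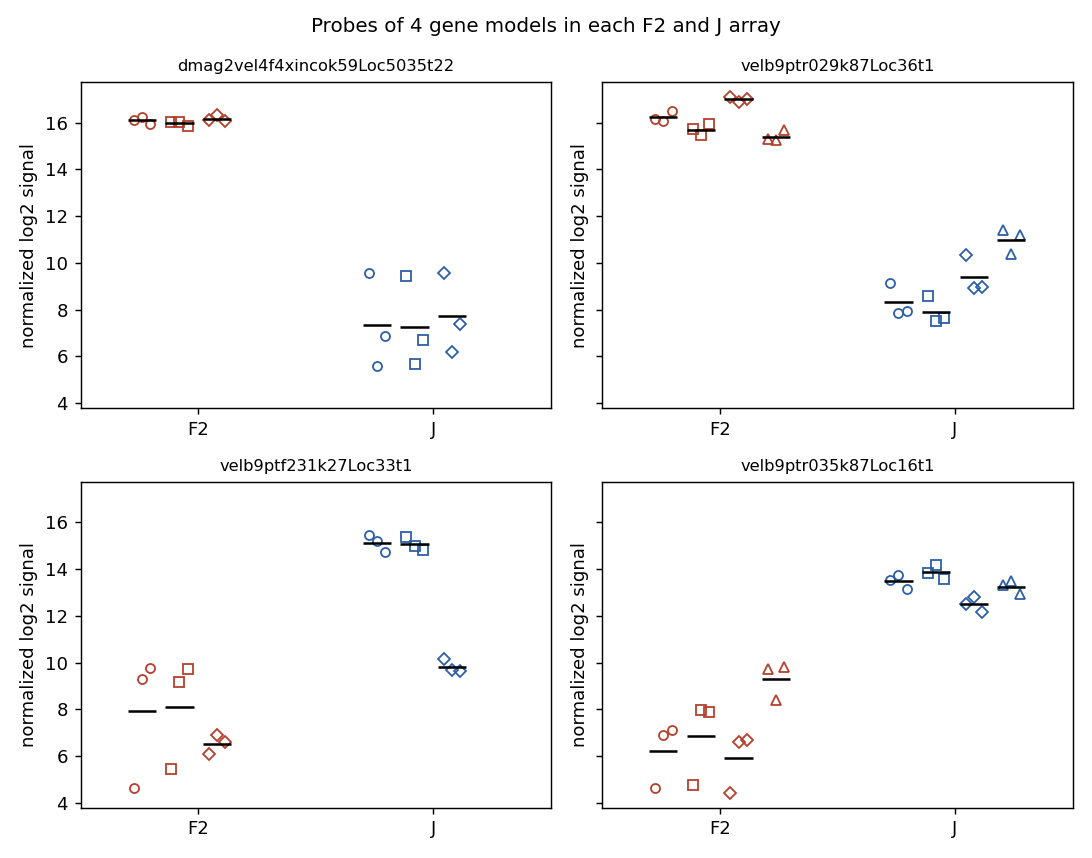
Normalized log2 signal (vertical axis) of the tested probes of 4 gene models in the 3 F2 and 3 J arrays. Each symbol shape is 1 probe, each symbol 1 array in the order of the replicate numbers, and each bar a group mean. F2 and J do not overlap for any of these probes, and the wide groups are J in the first model and F2 in both models of the lower row.

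Large spread within a stage followed the same sides more widely. A range of over 2 log2 units among the 3 F2 arrays was found in 500 of 9398 probes called lower (5.32%) but in 37 of 8334 called higher (0.444%). Among the J arrays it was found in 321 of 8345 probes called higher (3.85%) and in 28 of 9408 called lower (0.298%). The wide range thus lay mostly in the stage with the lower signal. Replicate 1 was farthest from the median of its group in 305 of the 500 F2 cases and in 222 of the 321 J cases.

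Models with a floor on 1 side were ranked apart. In 29 gene models with at least 3 tested probes, all called higher, no probe was well above background on any J array, and in 11 models lower in F2 the same held for the F2 arrays. The lower bounds of their folds, by the floor of the scanner's flag, had a median of 8.61 (highest 24.6) for the higher and 7.71 (highest 26.9) for the lower models. Each "at least" below refers to that floor. One probe of the leading higher model had log2 signals of 9.41, 9.88 and 9.50 in F2, against 4.6, 4.07 and 3.01 in J, which is at least 32.4-fold. It was also high in F3 (6.53, 9.14 and 9.39) and low in F1 (5.71, 4.75 and 4.18). A probe of the second higher model had 9.16, 8.83 and 9.56 in F2, against 3.41, 4.12 and 3.42 in J, at least 25.4-fold. It was high in E3 (8.75, 8.68 and 8.61) and low in F3 (5.51, 4.50 and 3.97), so that the 2 models were alike in F2 and J but not in the other stages. One probe of the leading lower model had 2.69, 4.00 and 3.51 in F2, against 8.71, 9.16 and 9.57 in J, at least 42.5-fold lower in F2, and its F1 signals of 7.89, 8.17 and 7.34 were nearer to J.

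Which stage had more probes above background depended on how background was set. With the percentile 95 of the random probes, 59895 probes were above background in all 3 F2 arrays and 67127 in all 3 J arrays, with 55608 in both. A total of 1862 probes of 1351 gene models were above it in all F2 arrays and in 0 of the J arrays, against 6778 probes of 4829 models in all J and 0 of the F2 arrays. With the scanner's flag for signal well above background these counts were 8274 for F2 and 936 for J, so that the order turned round. The upper tail of the random probes was itself brighter in F2, with a percentile 95 of 5.80 to 5.91 (log2) in F2 arrays, against 5.39 to 5.56 in J arrays. The medians of the random probes were 3.00 to 3.11 in F2 and 3.01 to 3.14 in J. The scanner's flag marked 61.4% to 63.5% of the probes in F2 and 49.0% to 55.6% in J. Of the probes above the random background only in F2, 66.0% were called higher in F2, and of those only in J, 29.3% were called lower in F2. These groups had been chosen by level, so that such shares describe them and test nothing.

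Random probes were also called. Of 2532 random probes, 137 passed the filter and 28 were called, 23 higher and 5 lower in F2. This is 20.4% of those tested and 1.11% of all random probes, against 23.3% of the tested probes of gene models. The median difference of the 137 was 0.42, while over all random probes it was -0.02. These 137 are the brightest 5.41% of the random probes, and what they hybridised with was not tested.

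The scaling set the balance of directions. The arrays also carry control probes for Agilent spike-in RNA, which is made to be added in equal amount to every sample and so gives a scale that does not assume equal signal in all stages. How much was added is not given in the sources used here. On 5 such probes the mean log2 signal was 14.75 in F2 (14.68 to 14.89) and 15.12 in J (14.72 to 15.46). On the slide that held both stages it was 14.69 in F2 and 14.72 in J. The other J arrays, at 15.18 and 15.46, shared a slide with an E1 array at 15.44 and an M array at 15.47. The part of the slide in this difference was not tested. Before normalization the median tested probe was 0.61 higher in F2 than in J, and relative to the spike-ins it was 0.98 higher. With each array scaled on its spike-ins, the median difference of all tested probes was 0.95 in place of -0.01. Then 5716 probes were called higher and 1102 lower in F2, so that higher probes made up 83.8% of the calls, against 47.0% with quantile normalization. Of the 17755 probes called with quantile normalization, 1866 changed sign with spike-in scaling, and 4188 of the higher and 1089 of the lower ones were called again in the same direction. All directions given here are therefore relative to the median probe of each array. The 4 named gene models kept their direction with spike-in scaling.

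On the slide that held replicate 2 of both stages, 17736 of 17737 called probes with both values had the sign of the whole comparison, and 94.9% differed at least 1.5-fold the same way. The medians were 1.59 for the higher and -1.49 for the lower probes. These 2 arrays were among the 6 that chose the probes, so that this is a description. With only these 2 arrays for F2 and J, and the spread taken from the other stages, 266 probes were called (237 higher, 29 lower). With all F2 arrays and the J array of the same scan date, 4500 were called, 2250 in each direction. Slide as a block gave 13682 probes (6636 higher, 7046 lower) and scan date as a block 17421 (8455 higher, 8966 lower). Of the 17755 probes, 11425 were called again with slide as a block and none of them changed sign.

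The other stages were read as a setting for the probes that differed. Probes called higher in F2 had a median signal of 7.72 in early embryos (E1), 8.19 in late embryos (E3) and 7.86 in J. In adults it was 8.72 for F1, 9.83 for F2, 9.75 for F3 and 8.75 for males. F3 thus came close to F2, though 1 F3 array was at 9.39, and F1 and M lay between J and F2. The probes called lower had medians of 8.58 in E1, 9.94 in E3 and 10.03 in juveniles, while adults had 8.99 for F1, 7.96 for F2, 8.01 for F3 and 9.50 for males. Here E3 came closest to J, with 1 array at 9.46, and F3 closest to F2, though the same F3 array was at 8.54, level with E1. Tested probes that were not called had stage medians of 7.33 to 7.63.

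**Figure D4:**
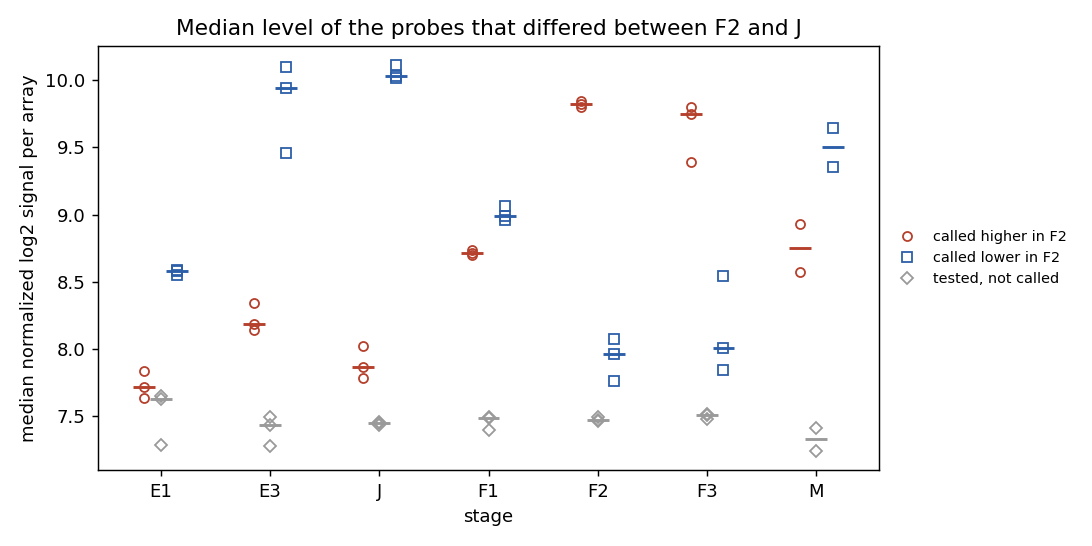
Median normalized log2 signal (vertical axis) of the 8347 probes called higher in F2, the 9408 called lower and the tested probes not called, in each array by stage (horizontal axis, in stage order). Points are arrays and bars the median of the arrays of a stage. F2 and F3 lie close for both called sets except for 1 F3 array (9.39 and 8.54), and F1 lies between J and F2.

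Among the 5 stages other than F2 and J, F3 was the highest for 44.4% of the probes called higher in F2, against 20.8% of all tested probes. F3 was the lowest for 32.4% of the probes called lower, against 10.8% of all tested probes, and the highest for 0.542%. F3 and F1 share no array with F2 or J, and in their own comparison 31.4% of the probes called higher in F2 were called higher by the same thresholds in F3 than in F1, and 5.73% were called lower. Over all tested probes 7.39% were called higher and 9.19% lower in F3 than in F1. Of the probes called lower in F2, 2.09% were called higher and 26.4% lower in F3 than in F1. Across the tested probes the difference between F3 and F1 correlated with that between F2 and J at r = 0.428, which describes probes of a common set of stages with shared slides. Without the 4 arrays of the first slide it was 0.432, with 48.1% and 33% of the probes called the same way against backgrounds of 16.6% and 14.5%. F3 and M, which share no array with F2 or J either, gave r = 0.397 (0.427 without the first slide, where M had 1 array). They do share slides with them. All F3 arrays lay on the slides of F2 replicates 1 and 3. M replicate 2 lay on the slide of J replicates 1 and 3, and M replicate 1 on the first slide. Stage and slide therefore cannot be told apart in this comparison. Of the probes called higher in F2, 44.0% were called higher and 7.26% lower in F3 than in M, and of those called lower in F2, 4.86% and 38.9%, against 22.3% and 12.0% of all tested probes. Between F1 and M the correlation was 0.0179, and between E1 and E3 it was 0.0791.

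The probes with the largest differences had another order of stages. The 864 probes at least 16-fold higher in F2 had median signals of 5.47 in E1, 10.46 in E3 and 5.33 in juveniles, while adults had 5.80 for F1, 11.21 for F2, 9.71 for F3 and 9.89 for males. They were thus at a high level in late embryos, F2, F3 and males and at a low level in early embryos, juveniles and females just after moulting. Of these stages, E1, E3, F1 and M each had 1 array on the first slide. The 1279 probes at least 16-fold lower in F2 had medians of 5.04 in E1, 10.59 in E3 and 11.42 in juveniles, while adults had 8.90 for F1, 6.34 for F2, 5.29 for F3 and 9.96 for males. Late embryos were high for both sets, though 1 of the E3 arrays was at 7.92 for the lower set, against 10.59 and 10.99 in the others. For the lower set F2 replicate 1 was at 5.18, against 6.34 and 6.83 in the other F2 arrays.

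**Figure D5:**
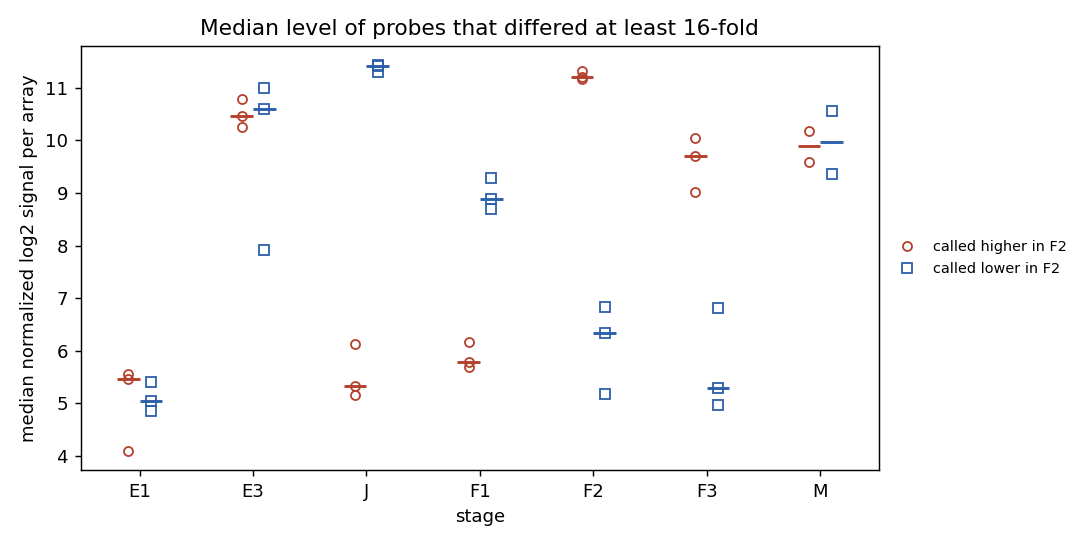
Median normalized log2 signal (vertical axis) in each array of the 864 probes called at least 16-fold higher and the 1279 called at least 16-fold lower in F2, by stage (horizontal axis, in stage order). Points are arrays and bars the median of the arrays of a stage. F1 lies near J for the higher set and between J and F2 for the lower set, and E3 and M are high for both, with 1 E3 array at 7.92 in the lower set.

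Comparisons that share no array with F2 or J were read by the same call thresholds. Of the 864 probes, 67.0% were called higher in F3 than in F1 and 2.66% lower, 64.1% were lower in F1 than in M and 8.33% higher, and 74.1% were lower in E1 than in E3 and 4.51% higher. Of the 1279 probes, 54.0% were lower and 1.49% higher in F3 than in F1, 59.9% were lower and 0.156% higher in F3 than in M, and 74.9% were lower and 0.938% higher in E1 than in E3. Over all tested probes, 12.0% were lower and 20.4% higher in F1 than in M, 12.0% were lower and 22.3% higher in F3 than in M, and 28.3% were lower and 34.7% higher in E1 than in E3. Between F3 and M the 864 probes had no such one-sided difference, with 15.4% higher and 6.71% lower in F3. The slides that F3 and M shared with F2 and J, given above, limit the reading of both sets here too. The limit of 16-fold and these comparisons were chosen after the values of the stages had been seen.

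The 4 named gene models shared parts of this order. The mean signal of dmag2vel4f4xincok59Loc5035t22 was 15.29 ± 0.83 in E3, 14.79 ± 1.66 in F3 (SD, n = 3 each) and 15.63 in M (n = 2), near F2, and 7.89 ± 1.14 in F1, near J. For velb9ptr029k87Loc36t1 the means were 13.58 ± 0.44 in E3, 12.11 ± 0.45 in F3 and 12.76 in M, below the 15.98 of F2, and 8.36 ± 1.38 in F1, close to the 8.86 of J. The lower model velb9ptf231k27Loc33t1 had 10.32 ± 2.29 in E3, 10.39 ± 0.80 in F1, 5.74 ± 0.07 in F3 and 11.23 in M. For velb9ptr035k87Loc16t1 the means were 9.15 ± 4.42 in E3, 11.10 ± 1.23 in F1, 4.67 ± 0.59 in F3 and 11.60 in M. In both lower models the mean in E3 was thus not above those in F1 and M. The stage values of the 1279 probes are medians of the arrays, so that the order of E3, F1 and M cannot be compared between them and these means. The E3 arrays of velb9ptf231k27Loc33t1 were at 7.68, 11.77 and 11.51. The E3 arrays of velb9ptr035k87Loc16t1 were at 4.63, 13.47 and 9.35, so that its mean there stands for no single array. Some probes of these models were not well above background on all arrays of E1, E3, F1, F3 or M, so that the low means there partly stand at the floor.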

How the data were processed

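For the 20 single-colour Agilent arrays the authors deposited scanner output whose processed signal is spot intensity on a linear scale, already background-corrected by Feature Extraction (version 10.5.1.1 in the file headers). A deposited series matrix holds log2 values that matched quantile normalized log2 signals minus each probe's median over the arrays (r of 0.99981 or more in every array, column medians -0.041 to 0.165), so that its scale and centring are known, and it was used as an alternative. RNA was labelled from equal amounts of total RNA per sample. How many animals made up a sample, and whether replicates were separate cultures, is not given in the sources used here. In the main fit the p-values rest on the spread within stages, pooled over all 20 arrays, those of the first slide included. They do not measure the spread of the F2 and J arrays alone, and the spread may be technical. The series text counts fewer juvenile samples than the 3 that are labelled.

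Control spots and outlier spots were left out and log2 processed signals averaged per probe (R 4.3.3, limma 3.58.1, data.table version 1.17.8, jsonlite 2.0.0; figures with Python 3.11.15, matplotlib 3.10.9, numpy 2.4.6). Arrays were quantile normalized, and 1 limma fit (lmFit, eBayes) of 7 groups used all 20 arrays. A plain t-test, named in the methods, was an alternative, as were normexp (offset 50, on the median signal), a 75th percentile shift, filters, thresholds, blocks, and each F2 and J array left out. Spike-in scaling and the contrasts that share no array with F2 or J were added after seeing the data. The members, thresholds and rules were chosen with earlier results of these data known. Named gene models were the 2 highest and 2 lowest by median difference with at least 3 tested probes, all called and all well above background. Lists of genes by name, and the check of the stages by markers, were not run, as the reference table matched 0 gene models. The annotation that the study describes for the array design was not used here. The fit was tested on simulated data. Same-numbered F2 and J arrays did not deviate together (r = -0.0055 to 0.0547), so that replicate numbers were not taken as pairs. The number of arrays limits the precision.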

Additional observations from a re-analysis of the deposited data

Results flagged for a closer look

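The spike-in control spots lie outside the measurement of the gene models, and relative to them the median tested probe was 0.98 higher in F2 than in J on the log2 scale. The lowest F2 array was at -6.56 and the highest J array at -7.13, so that the groups did not overlap. On the shared slide the difference was 1.15. It rests on 5 probes, and the amount of RNA behind it was not measured here. Groups of 3 arrays are too small for the test for single distant samples, which was therefore not made.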

How the results depend on the processing

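The directions of the 4 named gene models held under every alternative run. Filters, thresholds, t-tests, the fit of 6 arrays, the fit without slide 1 and the replicate block keep a probe's difference. The sign was thus fixed there for probes with complete values. Where F2 and J arrays do not overlap, leaving arrays out or keeping only slide 5 or scan date 3 fixed it too. Of all called probes, 1 turned within slide 5, and none with arrays left out or within scan date 3. The sign could change with normexp, the 75th percentile shift, the 6 arrays normalized alone, and slide or scan date as a block. None of the called probes tested there turned. With outlier spots kept and with the deposited matrix 5 each turned, and 1866 with spike-in scaling. Counts changed more. The number of probes that differed was 38112 with the 6 arrays normalized and fitted alone, 39071 with only the fit restricted to them, 36817 without the 4 arrays of slide 1, 34654 with the methods' t-test after adjustment (12957 at its own threshold), 9805 at an adjusted p under 0.01, 4500 within scan date 3, 266 within slide 5, and 6818 with spike-in scaling. Leaving out each array gave 11675 (without J replicate 3) to 13368. The gene models with such a probe were 17329, 17682, 17045, 15928, 5184, 2577, 179 and 3475 under those settings in the same order, 6100 to 6839 with an array left out, 4654 with at least 2 probes called the same way, and 1873 with all of at least 3. The share of higher probes was 50.2% with normexp, 44.7% with the 75th percentile shift, 48.8% and 50.2% with 6 arrays normalized or fitted alone, 46.2% with the deposited matrix, 48.0% with no filter, 48.7% with probes above background in both stages, 49.4% with those well above it in either stage, 46.1% with outlier spots kept, 49.4% without slide 1, 48.5% with slide and 48.5% with scan date as a block, 89.1% within slide 5, 50% within scan date 3, 51.2% and 49.8% with the t-test before and after adjustment, 49.4% at 2-fold, 46.0% at an adjusted p under 0.01, 83.8% with spike-in scaling and 44.9% to 46.7% with an array left out. Random probes called numbered 65, 70 and 65 with 6 arrays normalized alone, fitted alone or without slide 1, 9 with probes above background in both stages, 1 within slide 5, 4 within scan date 3, 17 and 55 with the t-test, 15 at an adjusted p under 0.01 and 18 to 23 with an array left out. Probes above background in only J numbered 936 by the scanner flag and 3953 at percentile 99 of the random probes, and in only F2 8274 by the flag. Leaving out arrays gave 2040 to 2425 in only F2 and 7179 to 9181 in only J.

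With replicate number as a block, which does not pair these samples, 16823 probes were called. Within slide 5 each stage had 1 array, assumed to vary like the others, and none of the 4 named gene models passed there. Of the lower ones, velb9ptf231k27Loc33t1 also missed the threshold with slide as a block (median difference -6.43, highest adjusted p of a probe 0.0601). Both missed it within scan date 3 (median differences -6.88 and -7.10) and with spike-in scaling (highest adjusted p 0.0649 and 0.174). At the unadjusted threshold of the methods' t-test, velb9ptr029k87Loc36t1 alone passed. With no filter the highest adjusted p among the probes of velb9ptr035k87Loc16t1 was 0.0643, and all its tested probes were called in 17 of 29 settings. The causes of these changes were not tested. Dim probes had the larger errors, and their folds are bounded by the background.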
